A study of Homo sapiens with 32 samples.

Results

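The 10 genes examined here mark the classical subtype of pancreatic ductal adenocarcinoma, and binding of the transcription factor HNF4α was mapped around them. They are AGR2, AGR3, TSPAN8, CEACAM5, CEACAM6, REG4, S100P, ST6GALNAC1, KRT20 and LYZ. A peak was assigned to a gene when its summit, the base of highest signal, lay within 50 kb of the span of the gene in the RefSeq annotation of GRCh38.p14. These were 10 of 20037 protein-coding genes, and 251 of the 337294 peaks in the 18 lists lay at them. Peaks of different lists that overlapped by at least 1 bp were merged, which gave 57 sites, each numbered along its chromosome within its nearest gene of the 10. The 10 genes form 8 separate loci, because AGR2 lies beside AGR3 and CEACAM5 beside CEACAM6; a peak near both genes of such a pair was counted once in the totals.

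HNF4α is a nuclear receptor of the liver, gut and pancreas that binds DNA as a homodimer. Transcription of its gene starts at either the P1 or the P2 promoter, and only P1 isoforms carry the N-terminal activation domain. The classical subtype is the gland-forming, better differentiated form of the disease and keeps gastrointestinal genes active, while the basal-like subtype has lost much of that identity and expresses squamous keratins.

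Chromatin immunoprecipitation sequencing (ChIP-seq) was performed in 3 established human pancreatic cancer lines. Panc10.05 and BxPC3 cells carried a doxycycline-inducible P1 isoform, α2 (P1-α2), or P2 isoform, α8 (P2-α8). The dose was 500 ng/mL in both BxPC3 groups. In Panc10.05 the P1-α2 cells were given 25 ng/mL and the P2-α8 cells 12.5 ng/mL, so dose and isoform cannot be told apart in that line. AsPC1 cells carried CRISPR interference, which represses a promoter through a guide RNA, with a guide named sgP1, sgP2 or sgNC; sgNC was taken as the control. An antibody to all isoforms (pan-HNF4α) was used in the 3 lines, and an antibody to P1 isoforms in AsPC1 sgP2 and sgNC. Each of the 9 groups had 2 libraries. The titles of the BxPC3 P2-α8 libraries join α8 to P1, whereas their genotype label reads P2-α8, which was used. The labels give replicate numbers but no separate cultures, so p-values measure only the spread between these libraries, which may be technical. Whether a line is a clone is not given in the sources used here, and peak lists hold no expression values with which to check its identity. The 14 input libraries were not analysed here.

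The 18 lists held from 260 to 41808 peaks, and read depth is unknown. The lowest −log10 q in a list was 8.00 or more in Panc10.05 and BxPC3 and 2.00 or more in AsPC1. The lists of AsPC1 were therefore not compared in number with those of the induced lines. Judging by the library names, the lines were sequenced in separate series, and the effects of line and series cannot be told apart.

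Peaks at these loci mostly lay away from promoters, which are a small part of windows reaching 50 kb beyond each gene. The same shares over all regions are not given here, so this is not read as a trait of these loci. Of the 57 sites, 12 lay inside the span of one of the 10 genes, 32 lay over 10 kb outside it, and 1 lay within 1 kb of the start of one of the 8 genes with an entry in the promoter table. Another gene was the nearest protein-coding gene for 20 sites, and the member itself for 37. A promoter window, the 300 bases from 250 before to 50 after a start, was touched by 5 sites. The windows were those of TSPAN8, TSPAN13, MXRA7 and YEATS4 and, touched by the same site, those of LINC02482 and MRFAP1L2. The 250 bases before the start are shown for the 3 of these windows whose upstream part held a summit, because they are the places where a peak and a promoter sequence can be read together. Sequences are from RefSeq (GRCh38.p14), 5′ to 3′ along the gene, and the capitals mark the summit of the strongest peak with 10 bases on each side. TSPAN8 is a member and its window is at chr12:71158000-71158249, minus strand. TSPAN13, at chr7:16753505-16753754, plus strand, and MXRA7, at chr17:76688714-76688963, minus strand, are neighbours of AGR2 and ST6GALNAC1.
TSPAN8: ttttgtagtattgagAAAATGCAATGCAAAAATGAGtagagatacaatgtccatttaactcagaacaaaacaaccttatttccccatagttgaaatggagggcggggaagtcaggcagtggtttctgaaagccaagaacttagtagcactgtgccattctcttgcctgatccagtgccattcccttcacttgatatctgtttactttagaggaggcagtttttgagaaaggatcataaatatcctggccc
TSPAN13: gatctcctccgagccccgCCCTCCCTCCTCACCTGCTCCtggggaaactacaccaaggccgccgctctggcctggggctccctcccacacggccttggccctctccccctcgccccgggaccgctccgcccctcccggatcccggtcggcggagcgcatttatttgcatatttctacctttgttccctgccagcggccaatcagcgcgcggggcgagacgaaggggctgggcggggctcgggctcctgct
MXRA7: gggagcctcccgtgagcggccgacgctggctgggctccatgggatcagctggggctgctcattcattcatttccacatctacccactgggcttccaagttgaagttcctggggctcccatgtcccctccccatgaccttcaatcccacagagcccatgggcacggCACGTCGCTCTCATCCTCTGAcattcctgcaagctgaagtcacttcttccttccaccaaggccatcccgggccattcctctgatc

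The TSPAN8 summit lay 225 bases before the start and came from 1 list, AsPC1 sgNC replicate 1, where its fold enrichment of 4.39 ranked at percentile 15.9. The percentile is the rank of a peak by the authors' fold enrichment within its own list, with 100 the strongest. The TSPAN13 summit lay 222 bases before the start, in 4 lists, and ranked at percentile 52.2 in AsPC1 sgNC replicate 1. The MXRA7 summit lay 75 bases before the start and was found in both Panc10.05 P1-α2 lists, at percentiles 15.1 and 33.1, and in neither P2-α8 list. The search covered 4 motifs on both strands of the 300-base windows: the nuclear receptor core AGGTCA, the HNF4 elements CAAAGTCCA and CAAAGTNCA, and DR1, a direct repeat of the core with any base in place of its T and a spacer of 1 base. The core can be part of a match of DR1. Of 35116 windows, 13.8%, 0.384%, 1.10% and 0.310% held them, in that order. The 8 genes with an entry have 9 windows, and AGGTCA was matched in 2 of them, those of AGR3 and CEACAM5; the other 3 motifs were matched in none. Of the sequences shown, MXRA7 holds AGGTCA, on the opposite strand.

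HNF4α sites were found at every one of the 10 genes, and most genes had a peak in both libraries of a group. With the pan antibody, this held for 8 of 10 genes in Panc10.05 P1-α2 against 74.5% of all protein-coding genes, and for 9 in Panc10.05 P2-α8 against 79.5%. In BxPC3 it held for all 10 genes with P1-α2 against 76.6% and for 7 with P2-α8 against 45.4%. In AsPC1 it held for 9 genes with sgNC against 58.5%, for 8 with sgP1 against 50.6% and for 7 with sgP2 against 52%. CEACAM5 and CEACAM6 were counted as separate genes, although in AsPC1 both rest on the same peaks. Neighbours were counted in the same way over all genes. The median number of peaks per gene was 1.25 with P1-α2 and 2 with P2-α8 in Panc10.05, below the 2 and 2.5 over all protein-coding genes. In BxPC3 it was 3.25 and 1, beside 2.5 and 0.5. In AsPC1 it was 2.25 with sgNC, 1.25 with sgP1 and 1 with sgP2, beside 1.5, 1 and 1. The counts in the induced Panc10.05 groups lie near the background, and the 10 genes were not tested against other genes.

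**Figure D1:**
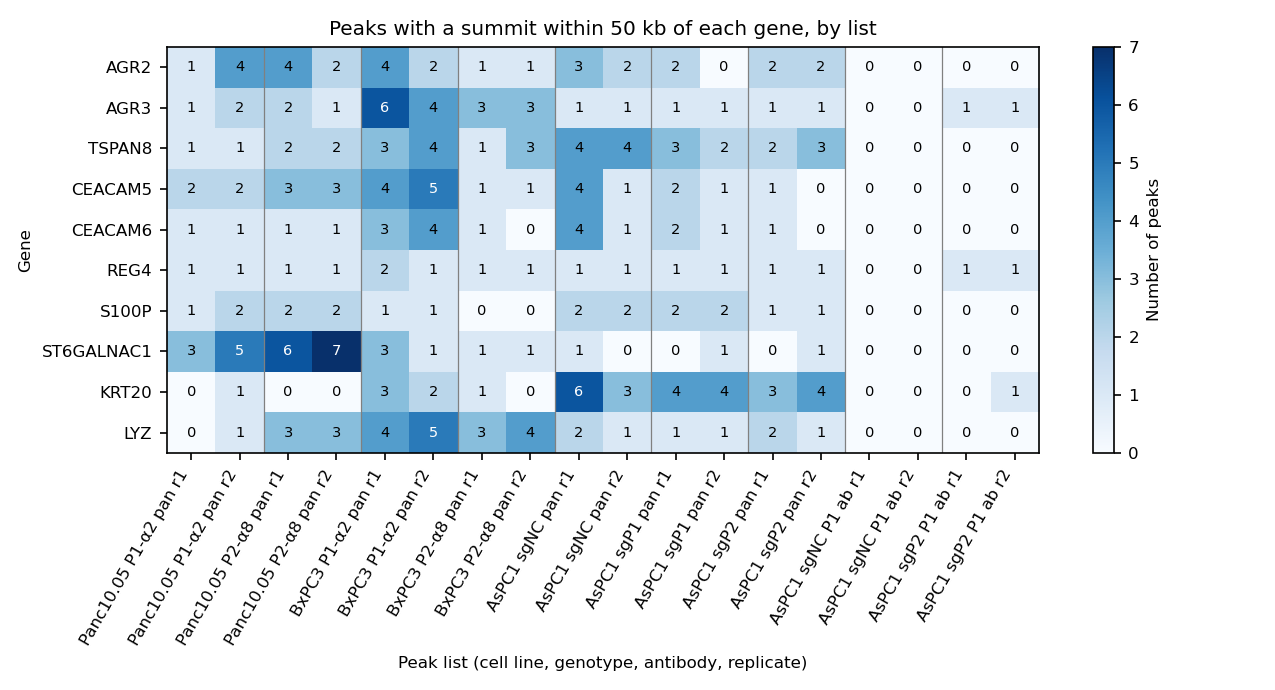
Number of peaks with a summit within 50 kb of each gene (rows) in each of the 18 peak lists (columns, grouped by line, genotype and antibody, with the 2 replicates side by side). ST6GALNAC1 has 3 to 7 peaks in the Panc10.05 lists and 0 or 1 in those of AsPC1, KRT20 has 3 to 6 in the pan lists of AsPC1, and the P1-antibody lists (P1 ab) of sgNC hold none; the AsPC1 lists have a lower threshold, so their numbers are not comparable with those of the other lines.

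The same counts are given for the other lists of genes. Of 29 other classical genes, chosen from general knowledge of the published signatures, 23 had a peak in both lists with either isoform in Panc10.05, 25 with P1-α2 and 20 with P2-α8 in BxPC3, 24 with sgNC and 22 with either of the other guides in AsPC1. Of 23 basal-like genes, such as the squamous keratins KRT6A and KRT17, 19 had one with P1-α2 and 23 with P2-α8 in Panc10.05, 22 and 13 in BxPC3, 13 with sgNC, 10 with sgP1 and 11 with sgP2. As shares, the basal-like genes were above the other classical genes in Panc10.05 (82.6% and 100% against 79.3% with either isoform) and in BxPC3 P1-α2 (95.7% against 86.2%). They were below them in BxPC3 P2-α8 (56.5% against 69.0%) and in AsPC1, at 43.5% to 56.5% against 75.9% to 82.8%. Over all protein-coding genes the shares with P1-α2 and P2-α8 were 74.5% and 79.5% in Panc10.05 and 76.6% and 45.4% in BxPC3. In AsPC1 they were 50.6% to 58.5%. Neighbouring genes, which can share a peak, were counted singly here, and the lists were not tested against each other.

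In both induced lines the isoform with more peaks at the loci had the longer lists on average. In Panc10.05 the lengths overlapped, at 24828 and 34146 peaks with P1-α2 and 39111 and 33646 with P2-α8. In Panc10.05 the number was 10 and 18 with P1-α2 and 22 and 21 with P2-α8, and the groups did not overlap. On the log2 scale of the number plus 1 P1-α2 differed from P2-α8 by −0.64. The exact permutation test, two-sided here and throughout, gave p = 0.333, the lowest value possible for 2 libraries against 2. Without P1-α2 replicate 1, the shorter list, it was −0.24. In BxPC3 the numbers were 29 and 25 with P1-α2 and 12 and 14 with P2-α8, again without overlap, a difference of 1.00 (exact p = 0.333). The BxPC3 P1-α2 lists were themselves longer by 1.46 on the log2 scale, and per 10000 peaks the difference was −0.36, with 6.94 and 7.41 peaks for P1-α2 and 9.46 and 9.55 for P2-α8. The same difference per 10000 peaks was −0.30 in Panc10.05 (exact p = 0.333). Over both lines, with labels permuted within each, P1-α2 differed from P2-α8 by 0.18 in number (exact p = 0.889). Per 10000 peaks it differed by −0.33, with an exact permutation p of 0.0556, the lowest this design allows, and 0.278 after adjustment. After Benjamini-Hochberg adjustment over the 10 comparisons, the p of the number itself was 0.556 or more in each.

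The density of peaks at the loci was lower in every Panc10.05 list than in any BxPC3 list, a difference that did not pass the adjusted test. Panc10.05 lists held 4.03 to 6.24 peaks at the loci per 10000 and BxPC3 lists 6.94 to 9.55, a log2 difference of −0.57. Its exact permutation p was 0.0286, the smallest that 4 lists against 4 can give, and 0.278 after adjustment over 10 comparisons. The number itself differed by −0.13 (exact p = 0.743).

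**Figure D2:**
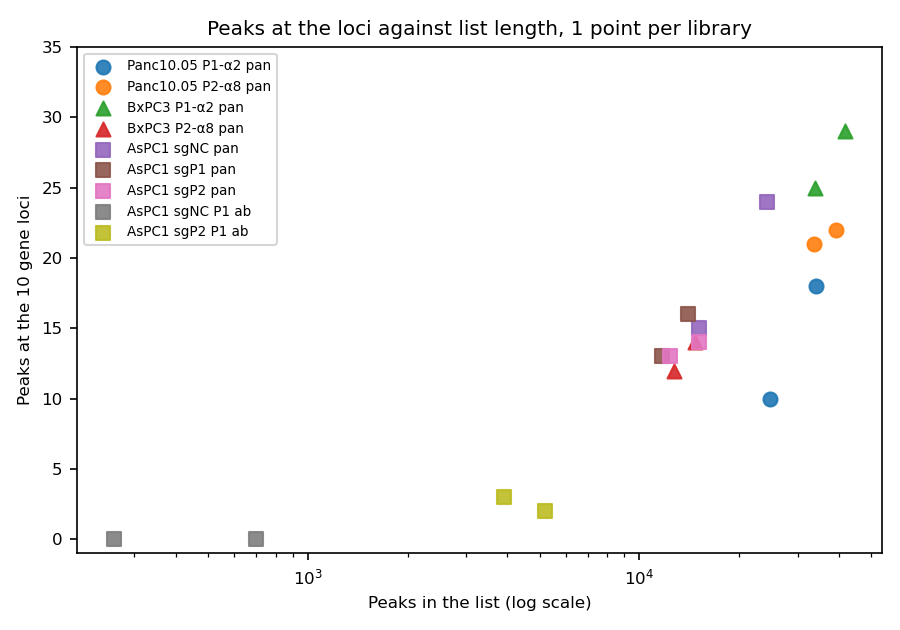
Peaks at the 10 loci (vertical axis) against the number of peaks in the list (horizontal axis, log scale), with 1 point per library, coloured by group and shaped by line. The BxPC3 P1-α2 lists are the highest, at 25 and 29 peaks, and the sgNC P1-antibody lists are at 0.

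In AsPC1 the pan-HNF4α numbers were 24 and 15 with sgNC, 16 and 13 with sgP1 and 13 and 14 with sgP2. The sgP1 values overlapped those of sgNC, with a log2 difference of −0.37 (exact p = 0.667). The sgP2 values lay below both sgNC values, at −0.46 (exact p = 0.333). Both comparisons share the sgNC libraries, and without sgNC replicate 1, whose list held 24295 peaks against 15118 in replicate 2, they were −0.05 and −0.14. Between sgP1 and sgP2 the difference was 0.09 (exact p = 1.00). Per 10000 peaks all 6 lists lay between 9.26 and 11.4.

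Few sites were common to all lines, and the most widely shared one lay upstream of AGR3. Of the 57 sites, 2 were in all 14 pan-HNF4α lists, which is 3.51% against 2.98% of all 78070 merged regions, and 9 were in at least 1 list of each line, 15.8% against 14.3%. Another 13, or 22.8%, were in 1 list alone, against 27.4% of all regions. These shares lay near those of all regions.

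AGR2 and AGR3 encode protein disulfide isomerases of the secretory pathway, and AGR2 is needed for mucin folding. AGR3 site 5, at chr7:16914509-16915313, lay 33.0 kb before the start of AGR3, with AGR3 as the nearest gene. It ranked at percentiles 79.9 and 78.9 with P1-α2 and at 42.0 and 29.2 with P2-α8 in Panc10.05. In BxPC3 the values were 95.1 and 80.5 with P1-α2 and 56.1 and 26.4 with P2-α8. In AsPC1 they were 96.4 and 78.2 with sgNC, 87.9 and 84.3 with sgP1 and 89.6 and 90.5 with sgP2, and the 3 guides overlapped. The P1-α2 lists were the higher ones in both induced lines.

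AGR2 site 2, at chr7:16786825-16787623, lay 4.52 kb beyond the 3′ end of AGR2, with TSPAN13 as the nearest gene, and was in 13 pan lists. It ranked from percentile 49.7 to 94.2 in the 8 lists of the induced lines. In AsPC1 it was near the bottom of the sgNC lists, at 11.3 and 0.377, at 43.7 and 20.6 with sgP2, and at 1.09 in sgP1 replicate 1 only. AGR2 site 3, inside AGR2 near its 3′ end, was in both BxPC3 P1-α2 lists, at 85.1 and 74.9, and in neither P2-α8 list. A further 4 AGR3 sites, all upstream of the gene, were found in BxPC3 alone.

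TSPAN8 encodes a tetraspanin of the cell surface, and CEACAM5 and CEACAM6 encode adhesion molecules, of which CEACAM5 is the carcinoembryonic antigen. TSPAN8 site 7, at chr12:71164675-71165433, lay 6.99 kb before the start and was the other site in all 14 pan lists. It ranked at 53.6 and 35.3 with P1-α2 and 65.0 and 49.7 with P2-α8 in Panc10.05, and at 74.0 and 20.1 against 27.3 and 16.5 in BxPC3, so that the isoforms overlapped in each line. In AsPC1 it ranked at 82.1 and 60.6 with sgNC, 67.2 and 64.7 with sgP1 and 31.3 and 76.0 with sgP2. TSPAN8 site 4, inside the gene, was in both Panc10.05 P2-α8 lists, at 82.1 and 70.6, and in neither P1-α2 list.

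The 3 sites nearest to CEACAM5 were found in the induced lines alone, while the AsPC1 peaks within 50 kb of CEACAM5 lay at sites nearer to CEACAM6. CEACAM5 site 1, inside the neighbouring CEACAM7, was in 4 Panc10.05 lists and 3 BxPC3 lists and in none of AsPC1. It ranked at 42.7 and 28.7 with P1-α2 and 39.0 and 18.4 with P2-α8 in Panc10.05. CEACAM5 site 2 was in both Panc10.05 P2-α8 lists, at 64.2 and 44.2, and in no other list. CEACAM6 site 4, at chr19:41773958-41774937, lay 2.44 kb beyond the 3′ end of CEACAM6 and was in no Panc10.05 list. In AsPC1 it was at 65.4 and 15.7 with sgNC and at 8.74 and 35.2 with sgP1, and neither sgP2 list held it. CEACAM6 site 3, inside the gene, was in both BxPC3 P1-α2 lists, at 66.1 and 6.09, and in no other list.

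REG4 encodes a secreted lectin, and LYZ encodes lysozyme, which degrades bacterial cell walls. REG4 site 3, at chr1:119815823-119816838, lay 5.09 kb before the start of REG4. It was absent from both Panc10.05 P2-α8 lists and present in the other 12 pan lists. It ranked at 66.2 and 51.5 with P1-α2 in Panc10.05, at 77.5 and 82.5 with P1-α2 and 45.4 and 26.0 with P2-α8 in BxPC3. Among only the regions found in every BxPC3 list it ranked at 35.5 and 54.6 against 36.0 and 19.4, so that the isoforms overlapped. In AsPC1 it was in all 6 pan lists and near the top of each, at 94.9 and 92.8 with sgNC, 90.7 and 88.6 with sgP1 and 91.5 and 85.4 with sgP2.

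LYZ site 7, at chr12:69359670-69360251, lay in the neighbouring YEATS4 gene and touched its promoter window. It was in 3 Panc10.05 lists, in all 6 pan lists of AsPC1 and in none of BxPC3. In AsPC1 it ranked at 72.8 and 81.9 with sgNC, at 33.6 and 20.6 with sgP1 and at 19.1 and 56.5 with sgP2, so that both sgNC values lay above those of the other guides. LYZ site 4 was in both Panc10.05 P2-α8 lists, at 4.59 and 32.0, and in neither P1-α2 list.

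S100P encodes a calcium-binding protein, ST6GALNAC1 the sialyltransferase that makes the sialyl-Tn antigen, and KRT20 an intestinal keratin. S100P site 3 lay inside S100P, 1.76 kb after its start, and was in the 6 pan lists of AsPC1 and in no other list, between 19.3 and 53.8. S100P site 1, which touched the MRFAP1L2 promoter window, was in both sgNC lists, at 37.2 and 35.5, in both sgP1 lists, at 15.0 and 1.24, and in neither sgP2 list. S100P site 2 was in both BxPC3 P1-α2 lists, at 69.4 and 52.8, and in neither P2-α8 list.

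ST6GALNAC1 had 11 sites, the most of the 10 genes. Site 5, at chr17:76601823-76602643 and 15.2 kb outside the gene, ranked at 93.7 and 91.5 with P1-α2 and 66.3 and 89.3 with P2-α8 in Panc10.05. It was at 55.9 in BxPC3 P1-α2 replicate 1 and in no AsPC1 list. Site 1, inside ST6GALNAC2, was in both Panc10.05 P2-α8 lists, at 58.3 and 56.2, and in no other list.

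KRT20 had a peak in 1 of the 4 Panc10.05 lists and in all 6 pan lists of AsPC1. The authors' threshold was lower in AsPC1. The −log10 q of sites 1, 2 and 4 there was at least 14.3, 22.5 and 28.0 in all 6. Site 2, at chr17:40901834-40902477, lay 16.9 kb before the start and ranked at 88.6 and 73.8 with sgNC, 85.1 and 75.3 with sgP1 and 70.4 and 76.3 with sgP2. It was at 88.1 and 77.5 with P1-α2 in BxPC3 and at 62.5 in P2-α8 replicate 1, and in no Panc10.05 list. Site 4, 19.6 kb before the start and nearest to KRT23, ranked between 74.2 and 87.2 in the 6 pan lists of AsPC1 and was in no list of the other lines. Site 1, 16.2 kb beyond the other end, was in both BxPC3 P1-α2 lists, at 13.1 and 38.0, and in neither P2-α8 list.

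**Figure D3:**
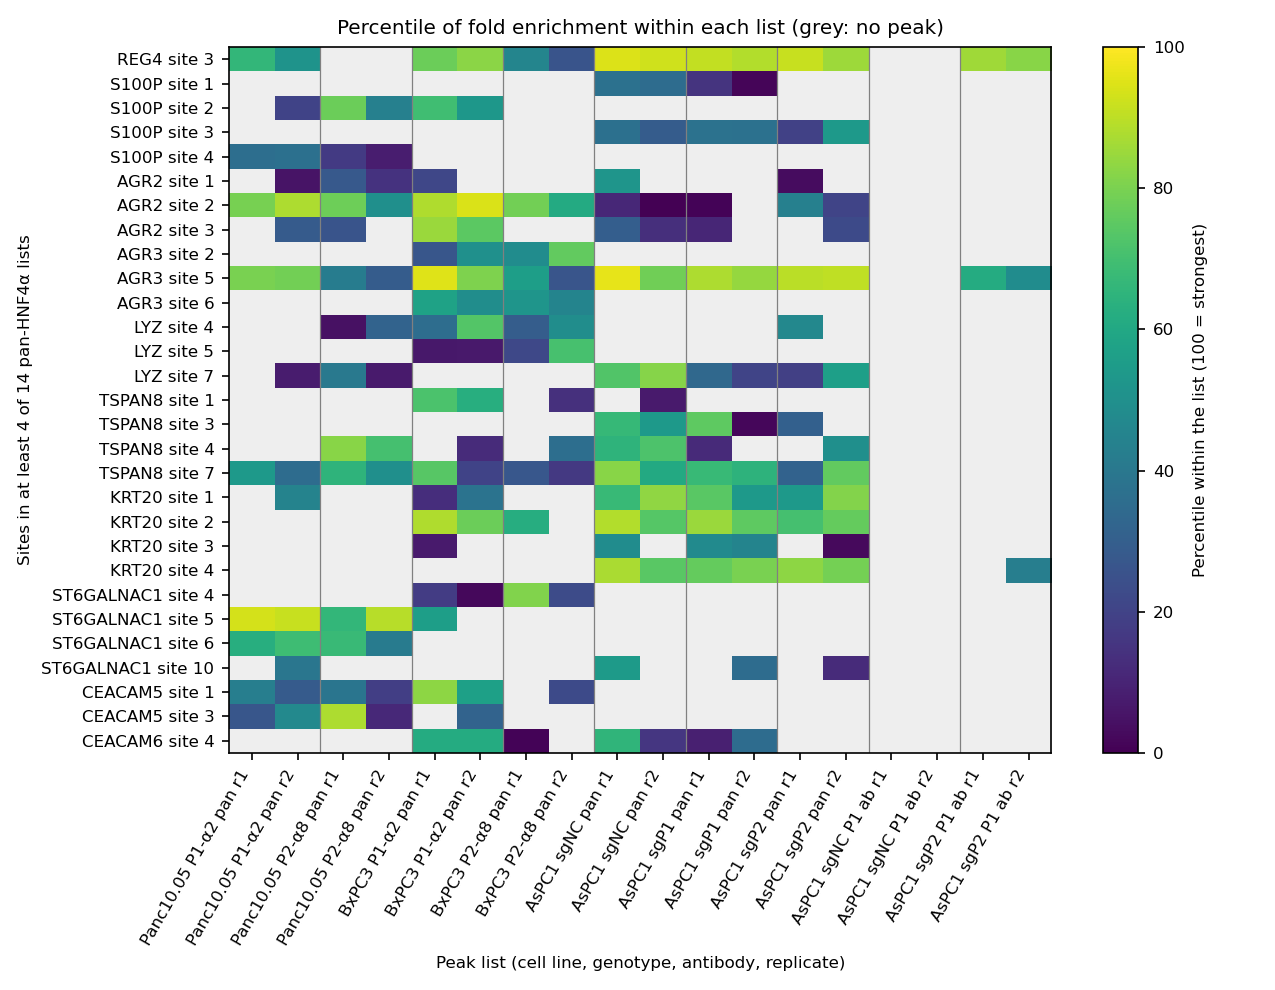
Percentile of fold enrichment within each list (colour, 100 the strongest; grey where the list has no peak) of the 29 sites found in at least 4 of the 14 pan-HNF4α lists, for the 18 lists. AGR3 site 5 and TSPAN8 site 7 are filled across the 14 pan lists, REG4 site 3 is grey in the Panc10.05 P2-α8 pair, and KRT20 site 4 is filled in AsPC1 alone.

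Some sites separated the lines. Those in every pan list of a line and in no pan list of another were 2 of 57 in Panc10.05 (ST6GALNAC1 site 6 and S100P site 4), against 3.15% of all regions. They were 4 in BxPC3 (AGR3 sites 2 and 6, LYZ site 5 and ST6GALNAC1 site 4), against 1.4%, and 2 in AsPC1 (S100P site 3 and KRT20 site 4), against 1.19%. ST6GALNAC1 site 6 lay 3.74 kb from the gene and ranked at 62.8 and 68.8 with P1-α2 and 67.8 and 41.6 with P2-α8. This count was chosen after the data were seen. With a −log10 q of at least 8 in every list, which puts the lines on one threshold, the numbers were 2, 4 and 1 of 52 sites in Panc10.05, BxPC3 and AsPC1, against 3.83%, 1.59% and 0.826% of all regions. KRT20 site 4 was the one in AsPC1.

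**Figure D4:**
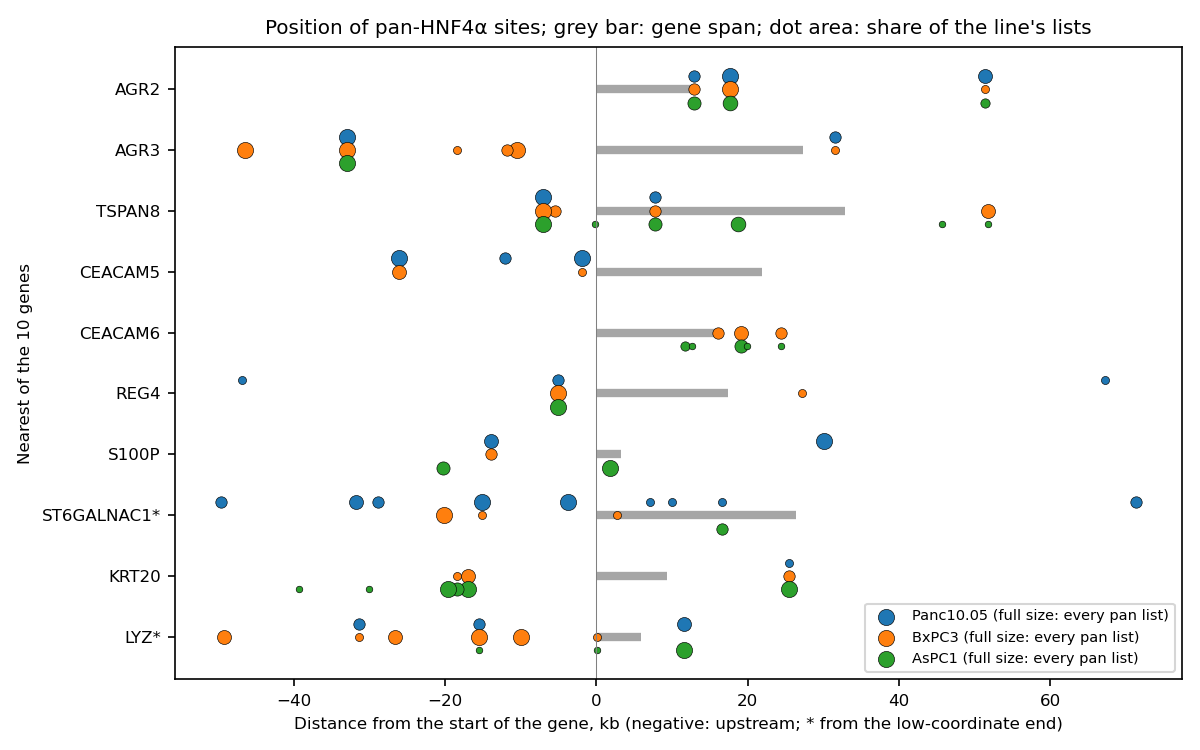
Position of the sites at each gene, as the distance in kb from the gene's start (horizontal axis, negative upstream; for ST6GALNAC1 and LYZ, marked with an asterisk, from the low-coordinate end to the middle of the site); grey bars are gene spans, colours are lines and the dot area is the share of that line's pan lists holding the site. The sites of AGR3 lie upstream of the gene except 1, and the dots of ST6GALNAC1 at its low-coordinate side are mostly Panc10.05.

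Isoform-specific sites were counted as regions in both lists of one isoform and in neither of the other. In Panc10.05, 2 of 28 regions at the loci were specific to P1-α2 (REG4 site 3 and ST6GALNAC1 site 11), against 3.64% of all regions. There, 6 were specific to P2-α8 (LYZ sites 2 and 4, TSPAN8 site 4, ST6GALNAC1 sites 1 and 3 and CEACAM5 site 2), against 10.9%. In BxPC3, 7 of 33 were specific to P1-α2 (AGR2 site 3, AGR3 site 3, TSPAN8 site 6, CEACAM6 sites 3 and 6, S100P site 2 and KRT20 site 1), against 28.2%. None was specific to P2-α8, against 0.129%. Without P1-α2 replicate 1 the Panc10.05 count for P1-α2 was 4, and without P1-α2 replicate 2 that for P2-α8 was 10. Without P1-α2 replicate 2 the BxPC3 count for P1-α2 was 14, and without P2-α8 replicate 1 that for P2-α8 was 1.

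Because lists of unequal length give ranks that cannot be compared directly, sites found in every list compared were ranked again among only the regions found in those lists. This ranking was chosen after the data were seen. In Panc10.05, 5 of 8 such sites ranked higher in both P1-α2 lists than in either P2-α8 list, against 25.4% of all shared regions, and 0 ranked lower, against 24.2%. They were AGR3 site 5, at 73.8 and 62.6 against 19.4 and 15.1, AGR2 site 2, ST6GALNAC1 sites 5 and 6 and S100P site 4. Without P1-α2 replicate 1, among the sites shared by the remaining lists, 5 ranked higher and 5 lower. In BxPC3, 1 of 9 ranked higher with P1-α2, against 18.5%, namely AGR3 site 5, at 78.7 and 50.9 against 46.5 and 19.7. In that line 4 ranked lower, against 18.8%: LYZ site 5, ST6GALNAC1 site 4 and AGR3 sites 2 and 6, which are the sites found in all 4 BxPC3 lists and in no list of another line. Leaving out any 1 library of BxPC3 gave 3 to 5 higher and 4 or 5 lower.

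Only 3 sites were in all 8 lists of the induced lines: AGR3 site 5, AGR2 site 2 and TSPAN8 site 7. AGR3 site 5 ranked higher with P1-α2 in each line, 1 of 3 against 4.76% of the regions shared by all 8, and 0 ranked lower in each, against 4.6%. Its percentiles among these regions were 50.7 and 38.5 with P1-α2 and 11.0 and 6.39 with P2-α8 in Panc10.05. In BxPC3 they were 72.1 and 42.5 against 40.3 and 16.6. The mean difference of 32.4 percentile points had an exact permutation p of 0.0556 with labels permuted within lines, the smallest that this design can give, and 0.167 after adjustment over the 3 sites. The other sites differed by 15.4 (exact p = 0.222) for AGR2 and −3.83 (exact p = 0.611) for TSPAN8.

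Few sites at the loci separated the guides in AsPC1. Few of all regions did so either, and the counts were not tested against those shares. No region at the loci was in both sgP1 lists and neither sgNC list, or the reverse, of 26, against 0.409% and 8.97% of all regions. Of 27, none was specific to sgP2, against 0.407%, and 2 were in both sgNC lists and neither sgP2 list, against 7.2%: CEACAM6 site 4 and S100P site 1. The same 2 were, of 22, in both sgP1 lists and neither sgP2 list, against 2.75%, and none the reverse, against 4.32%. The −log10 q of CEACAM6 site 4 was 21.7 and 5.97 with sgNC and 3.83 and 6.82 with sgP1. For S100P site 1 it was 9.85 and 7.02, and 3.93 and 2.44, where the lowest in AsPC1 lists was 2.00 or more. With summits within 100 bp, 0 were in both sgNC lists and neither sgP2 list, and 2 in both sgP1 lists and neither sgP2 list. The control libraries are shared by the first pair of comparisons, and the sgP2 libraries by those with sgP2. Both calls of CEACAM6 site 4 and S100P site 1 thus rest on absence from the same sgP2 lists. Without sgNC replicate 2, the shorter list, 8 sites were in the remaining sgNC list and in no list of sgP1, and likewise 8 for sgP2. Without sgP1 replicate 1 the sites lost in sgP1 were 3, and without sgP2 replicate 2 those lost in sgP2 were 4.

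Among regions shared by the lists compared, LYZ site 7 ranked at 15.5 and 11.2 with sgP1 against 33.6 and 68.9 with sgNC. In the comparison with sgP2 it ranked at 10.0 and 34.5 against 35.3 and 70.6. It and REG4 site 3 were the 2 of 11 sites lower with sgP1, against 19.4%, and S100P site 3 the 1 higher, against 20.9%. REG4 site 3 had a mean difference of −1.79 percentile points, at 84.7 and 84.6 against 85.5 and 87.4. With sgP2, LYZ site 7 was the 1 of 9 lower, against 18.4%, and AGR2 site 2 the 1 higher, against 19.3%, at 30.3 and 7.63 against 0.865 and 0.229. The counts are small, and leaving out any 1 library gave 2 to 5 in each direction.

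The P1 antibody found peaks at these loci with sgP2 and none with sgNC, whose lists were much shorter. The sgP2 lists, of 5200 and 3916 peaks, held 2 and 3 at the loci, and the sgNC lists, of 697 and 260, held 0 and 0. The difference of 1.79 on the log2 scale of the number plus 1 had an exact permutation p of 0.333, the smallest possible. It is no fold change, because it depends on the added 1. With lists of equal length by fold it was 0. Each list was then cut to 260 peaks, too few to hold peaks at these loci, so this setting cannot decide. Genes with a peak in both sgP2 lists were 2 of 10, AGR3 and REG4, against 23.7% of all protein-coding genes, and 0 with sgNC, against 2.31%. Both counts lie near these shares of all genes. Of 29 other classical genes, 16 had one with sgP2 and 1 with sgNC; of 23 basal-like genes, 5 and 0.

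The sites were AGR3 site 5, at percentiles 61.5 and 48.4 of the P1-antibody lists, REG4 site 3, at 85.8 and 82.3, and, in replicate 2 alone, KRT20 site 4, at 42.8. All 5 of these peaks, 2 of 2 and 3 of 3, coincided with a pan-HNF4α peak found with sgP2, as did 88.1% and 96.1% of all peaks of the same P1-antibody lists. The first 2 were the sites in both sgP2 lists and in neither sgNC list, of 3 regions, against 36% of all regions of these lists, and none was the reverse, against 0.0638%. With sgP2, 6 of 18 regions were in both pan lists and in neither P1-antibody list, against 29.2%, and none was the reverse, against 0.0562%. The 6 lay at AGR2, TSPAN8, S100P, LYZ and, as sites 1 and 2, KRT20. With sgNC, 14 of 25 were in both pan lists alone, against 51.2%, and none in both P1-antibody lists alone, against 0.0314%. Without sgNC pan replicate 2 the pan sites with sgNC were 24, and without sgP2 pan replicate 1 or 2 those with sgP2 were 11 or 10. The P1-antibody numbers differed from the pan numbers by −2.06 with sgP2 and −4.32 with sgNC on the log2 scale of the number plus 1, each with an exact permutation p of 0.333. The P1-antibody lists were themselves shorter, with log2 differences in length of −1.60 and −5.49. Per 10000 peaks the differences were −0.75 and −3.45. Those with sgNC come from lists without a peak at the loci, depend on the added 1 and are no fold changes. The P1 antibody was not used with sgP1 in the libraries analysed here.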

How the data were processed

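The deposited data are narrowPeak lists, 1 per immunoprecipitated library. Per the labels' protocols, chromatin was crosslinked with disuccinimidyl glutarate and then formaldehyde, and libraries carried unique molecular indexes. Bowtie2 2.2.9 and MACS2 2.2.7 and the builds hg38 and mm10 are named per the submitters' processing notes, without a role for each. How they were set is not given in the sources used here. The deposited columns hold fold enrichment as a linear ratio, significance (p and q) on a −log10 scale, and an integer score. Peaks were called per library by the authors, and read depth is unknown, so no counting interval can be given. All peaks lay on chromosomes 1 to 22, X and Y, 21642 of them on chromosomes 20 to 22. In 18 of 18 lists summits fell within 1 kb of GRCh38.p14 coding-gene ends more often than after a shift of 100 kb.

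Python 3.11.15 with pandas 2.3.3, numpy 2.4.6 and scipy 1.17.1 was used. Coordinates are 1-based, as merged from the lists. Peaks were linked to genes by the distance of the summit to the gene span, and shared when they overlapped by 1 bp. The library was the unit of every test, a two-sided exact permutation test of the mean of log2(1 + number), adjusted over 10 comparisons. Overlap and merging were checked with simulated lists and with bedtools 2.31.1.

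The members, the lists of other classical and basal-like genes and the tests were chosen with earlier results of these data known. The sites named were, per gene, the one in the most pan lists (ties by mean percentile), the group-specific site with the highest mean percentile in each comparison, and those in both P1-antibody lists of a group. Other sites were named after their values were seen. Same-numbered replicates were checked for pairing, and the correlations of their deviations lay between −0.073 and 0.068, so the numbers were not used as pairs. Alternatives were windows of 10 and 100 kb, a −log10 q of at least 20, lists of equal length by fold, numbers per 10000 peaks, summits within 100 bp, a replicate block and leaving out each library. A −log10 q of at least 8, the ranks among shared regions and the sites specific to a line were chosen after seeing the data.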

Additional observations from a re-analysis of the deposited data

Results flagged for a closer look

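The difference between isoforms in the number of peaks at the loci had opposite signs in the induced lines. In Panc10.05 both P1-α2 lists (10 and 18 peaks) lay below both P2-α8 lists (22 and 21), and in BxPC3 both (29 and 25) lay above (12 and 14). The isoform difference in Panc10.05 minus that in BxPC3 was −1.64 on the log2 scale of the number plus 1. The exact permutation p, with labels permuted within lines, was 0.0556, the smallest that this design can give, and 0.306 after Benjamini-Hochberg adjustment over 11 tests. The lengths of whole lists moved the same way in each line, by −0.32 in Panc10.05 and 1.46 in BxPC3, and their part in the difference was not tested. Per 10000 peaks the isoform differences had the same sign, −0.30 in Panc10.05 and −0.36 in BxPC3.

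Of the single genes, CEACAM5 alone had the same opposite pattern without overlap. The share of all protein-coding genes with this pattern is not given here, so it is not read as a trait of this gene. Its numbers were 2 and 2 with P1-α2 and 3 and 3 with P2-α8 in Panc10.05, and 4 and 5 against 1 and 1 in BxPC3. The difference between lines was −1.87 (exact permutation p = 0.0556, adjusted p = 0.306). Some of these peaks also lie within 50 kb of CEACAM6. In Panc10.05 the peaks were at CEACAM5 sites 1, 2 and 3. In BxPC3 most of those with P1-α2 were at CEACAM6 sites 3, 4 and 6, and that of P2-α8 replicate 1 was at CEACAM6 site 4. The lines were thus compared at largely different sites.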

How the results depend on the processing

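The sign of the difference in peak number turned or was lost as follows. On the log2 scale of the number plus 1, BxPC3 P1-α2 over P2-α8, 1.00, became −0.56 with lists of equal length by fold and −0.36 per 10000 peaks, and both lines together, 0.18, became −0.095 and −0.33. With equal lengths sgP1 over sgNC and sgP2 over sgNC were 0. So were sgP2 over sgNC with the P1 antibody and the P1 over the pan antibody with sgNC. In these last comparisons each list was cut to 260 peaks, too few to show a difference at the loci. Per 10000 peaks sgP1 over sgNC became 0.17, and at −log10 q ≥ 8 sgP1 over sgP2 became −0.14. Panc10.05 over BxPC3 became 0.038 and 0.24 with windows of 10 and 100 kb and 0.13 at −log10 q ≥ 20, and passed the unadjusted threshold of 0.05 with equal lengths (−1.14) and per 10000 peaks (−0.57), both at an exact permutation p of 0.0286. Leaving out 1 library gave −0.050 to 0.23 for sgP1 over sgP2, −0.016 to 0.38 for both lines and −0.33 to 0.11 for Panc10.05 over BxPC3. The sign turned without sgP1 replicate 1, without Panc10.05 P1-α2 replicate 2, and without Panc10.05 P1-α2 replicate 1 or either BxPC3 P1-α2 list, in that order. For Panc10.05 over BxPC3 the exact permutation p in the cases that turned was 0.8, 0.886 and 1.00.

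The counts of group-specific sites fell under some settings and rose under others. With a window of 10 kb they were 1 and 1 for P1-α2 and P2-α8 in Panc10.05, 4 for P1-α2 in BxPC3, 1 for sgNC over sgP2, 1 for sgP1 over sgP2, 1 for the P1 antibody in sgP2 and 9 for the pan antibody in sgNC. With a −log10 q of at least 20 they were 3 for P2-α8 in Panc10.05, 2 for sgNC over sgP1, 0 for sgP1 over sgP2, 1 for the P1 antibody in sgP2, and 3 and 8 for the pan antibody in sgP2 and sgNC. With equal lengths they were 1 and 4 for P1-α2 and P2-α8 in BxPC3, 1 and 1 for sgP1 and sgNC, 1 and 0 for sgP2 and sgNC, 1 for sgP1 over sgP2, 0 for the P1 antibody in sgP2, and 1 and 0 for the pan antibody in sgP2 and sgNC. With summits within 100 bp, 0 were lost in sgP2 from sgNC. Leaving out 1 library gave 2 to 4 and 6 to 10 in Panc10.05, 9 to 14 and 0 to 1 in BxPC3, 0 to 1 and 0 to 8 for sgP1 and sgNC, 0 to 1 and 3 to 8 for sgP2 and sgNC, 3 and 0 to 3 for sgP1 and sgP2, 2 to 3 for the P1 antibody in sgP2, and 6 to 11 and 14 to 24 for the pan antibody in sgP2 and sgNC. The equal-length setting thus gave more P2-α8 than P1-α2 sites in BxPC3. Its counts of 0 for the P1 antibody in sgP2 and the pan antibody in sgNC came from lists cut to 260 peaks, too few to decide.

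Genes with a peak in both lists, of 10, were with a window of 10 kb 5 and 5 in Panc10.05 (P1-α2 and P2-α8), 4 and 3 in BxPC3, 5 with sgP1 and 1 with the P1 antibody in sgP2. At −log10 q ≥ 20 they were 4 in BxPC3 P2-α8, 5, 4 and 3 with sgNC, sgP1 and sgP2, and 1 with the P1 antibody in sgP2, and at −log10 q ≥ 8 they were 4 with sgP1. With equal lengths they were 6 in BxPC3 P1-α2, 5 with sgNC and 0 with the P1 antibody in sgP2. The P1-antibody lists were then cut to 260 peaks, too few to decide.

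Replicate numbers did not pair the libraries. With the replicate block the differences were the same by construction, −0.64 in Panc10.05 and 1.00 in BxPC3, each with an exact permutation p of 0.5, the smallest that 2 pairs can give. No block could be set for the counts of sites, which have no test. The unknown depth limits every count: a site missing from a list was below the authors' threshold there, not shown to be unbound.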
